A study of Mus musculus with 6 samples.

Results

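The 8 genes Slc30a1, Slc30a2, Slc30a3, Slc30a4, Slc30a7, Slc30a9, Slc30a10 and Slc39a10 of the zinc transporter families were followed in NIT-1 cells with and without cadmium. They were taken by name from the deposited values, with the brightest probe standing for each gene, and all 8 were present among 18974 genes measured under a single name. Each of the 8 was read by 1 probe set, called a transcript cluster, which shared its values with no other gene. NIT-1 is an established mouse beta cell line, derived from a tumour of a transgenic NOD mouse whose insulin promoter construct drives a viral oncogene. Cells were plated for 24 h and then kept for another 24 h without cadmium (control, 3 arrays) or with 4 µmol/L CdSO4 (cadmium, 3 arrays), in the same serum-containing medium. The comparison asks how transcripts for zinc export and import differed after a cadmium exposure that the series describes as oxidative damage. Biotin-labelled total RNA was hybridised to 1 array per sample, and the labels call the samples biological replicates without saying whether they came from separate passages, so the p-values cover only the spread among these samples.

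Zinc leaves the cytosol through the Slc30 (ZnT) family, which exports it from the cell or moves it into vesicles, the Golgi apparatus and other compartments, and it enters the cytosol through the Slc39 (ZIP) family. Free zinc is sensed by the transcription factor Mtf1, which binds metal response elements and is known to drive metallothionein genes and Slc30a1 when zinc or cadmium rises. Cadmium is carried by some of the same transporters and displaces zinc from proteins. Beta cells hold much zinc, because insulin is packed with it in secretory granules.

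Values are deposited signals, taken to be on the log2 scale, and are given per array or as mean ± SD with n = 3 per group. A change is cadmium minus control in log2 units. It was called when limma's adjusted p, with Benjamini-Hochberg adjustment over all 18974 genes, was under 0.05. Median gene signals were 4.13 to 4.14 on control arrays and 4.17 to 4.18 on cadmium arrays, and the median change over all genes was 0.044. A background bound of 6.18 was taken from the 95th percentile of 5222 negative control probes, averaged over the 6 arrays, and 87.0% of all genes lay at or below it in both groups. The bound is approximate, since nothing states how a negative control value compares with the value of a whole transcript cluster. A fold is therefore given only where a group mean exceeded the bound. The second principal component, with 15.6% of the variance, set control replicate 3 and cadmium replicate 1 against the remaining 4 arrays. Precision is limited by having 3 arrays a group.

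With cadmium, the zinc exporter gene Slc30a1 rose and the zinc importer gene Slc39a10 fell. Slc30a7 and Slc30a9, whose products belong to internal membranes, fell by less. Of the 8 genes 4 were called, 1 higher and 3 lower, where 12.2% of all genes were called, 6.47% higher and 5.72% lower. The share called was larger among brighter genes, at 2308 of the 9487 from the median level upward. The 8 genes were chosen with earlier results of these data known, so their counts are not independent of the data. Slc30a1 changed by 0.91 and Slc39a10 by -1.11, whereas Slc30a7 and Slc30a9 changed by -0.34 and -0.35. The remaining 4, Slc30a10, Slc30a2, Slc30a3 and Slc30a4, changed by 0.19, 0.19, 0.11 and -0.25 and were not called. The median change over the 8 genes was -0.073. After centring each array on its median 5 of the 8 were called, Slc30a4 being added, where 12.3% of all genes were, 4.66% higher and 7.64% lower. After quantile normalization 3 were called, Slc30a7 being lost, where 11.8% of all genes were, 5.12% higher and 6.67% lower. Control and cadmium values were fully separated in 7 of the 8 genes, 3 higher and 4 lower with cadmium, against 35.9% of all genes, 22.9% higher and 13.0% lower. The same 7 genes were separated after centring, against 33.5% of all genes, 15.1% higher and 18.4% lower.

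**Figure D1:**
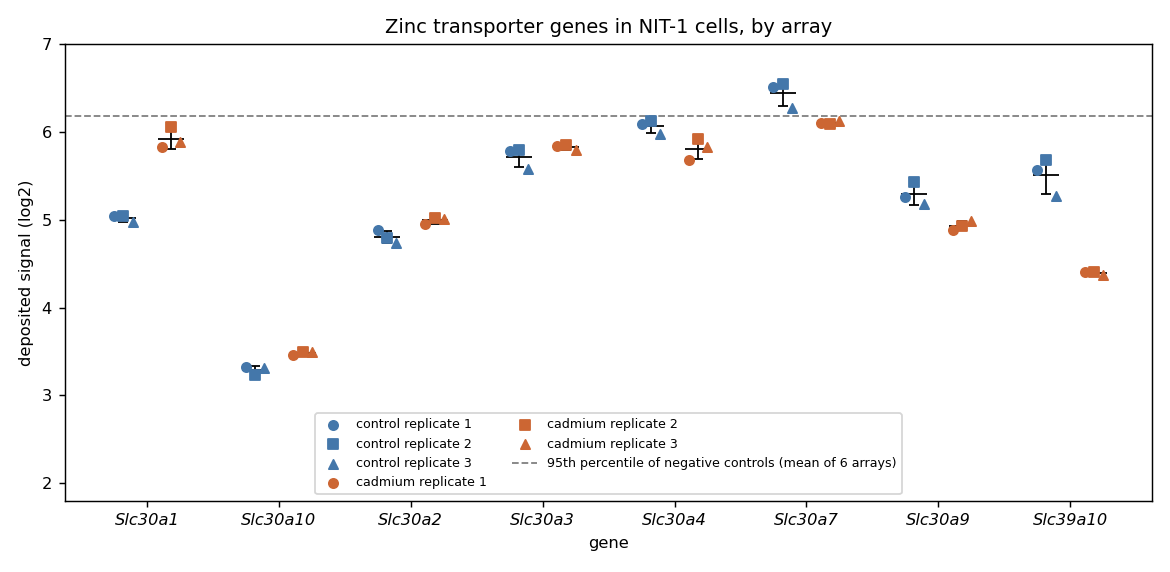
Deposited log2 signal (vertical axis) of the 8 genes on each array, with control arrays in blue, cadmium arrays in orange and replicates by marker shape. Bars give mean ± SD, n = 3, and the dashed line is the background bound of 6.18. Slc30a1 and Slc39a10 show the widest gaps between groups, in opposite directions, and only control arrays of Slc30a7 reach above the line.

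Slc30a1 (chromosome 1) encodes ZnT1, which pumps zinc out of the cell across the plasma membrane. It read 5.04, 5.04 and 4.97 on the control arrays and 5.83, 6.06 and 5.88 on the cadmium arrays. The lowest cadmium array lay well above the highest control array, and the control arrays were tightly grouped, with an SD of 0.04. The change was 0.91 ± 0.07 (SE), with a 95% confidence interval of 0.74 to 1.07 (limma adjusted p = 0.00149). Only 189 of all genes had a larger increase. Both means lay below the background bound, so no fold is given, but the signal exceeded 87.3% of the negative control probes in control and 93.8% in cadmium arrays. The call held with any 1 array left out, with changes of 0.84 to 0.95 and adjusted p of 0.00225 to 0.0116.

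Slc39a10 (chromosome 1) encodes ZIP10, which brings zinc into the cell across the plasma membrane. Its control arrays read 5.57, 5.68 and 5.27 and its cadmium arrays 4.4, 4.41 and 4.37. All cadmium arrays lay below all control arrays, and they were tightly grouped, with an SD of 0.02 against 0.21 in control. The change was -1.11 ± 0.10 (SE), with a 95% confidence interval of -1.35 to -0.88 (limma adjusted p = 0.00149). Just 12 genes of 18974 had a larger decrease. Both means were below the bound, and the signal exceeded 91.2% of the negative control probes in control and 81.6% in cadmium arrays. Control replicate 3 was the lowest of the control arrays by 0.23 from their mean. Without it the change was the largest of the 6 fits that left out an array, at -1.23, and without control replicate 2 it was the smallest, at -1.03, all 6 called.

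The start regions of these genes are shown because Slc30a1 moved in the same direction as the metallothioneins, and because Slc39a10 moved in the opposite one. The sequences are RefSeq windows from build GRCm38.p6 that run from 250 bases before to 50 bases after an annotated start, and all 8 genes had at least 1 window. Each is printed from 5′ to 3′ in lower case, and capitals mark the core of the metal response element, searched as TGCACNC and TGCGCNC on both strands, where overlapping matches count once. Slc30a4 is added as a gene with matches that did not rise, and Mt1 and Mt2 as metallothionein genes that did. Mt3 and Mt4 were called higher too, and their windows are counted below without being printed. The windows lie at chr1:191906531-191906830, plus strand for Slc30a1, at chr1:46925727-46926026, minus strand and chr1:46853569-46853868, minus strand for both annotated starts of Slc39a10, at chr2:122702614-122702913, minus strand for Slc30a4, at chr8:94178839-94179138, plus strand for Mt1 and at chr8:94172368-94172667, plus strand for Mt2.
Slc30a1: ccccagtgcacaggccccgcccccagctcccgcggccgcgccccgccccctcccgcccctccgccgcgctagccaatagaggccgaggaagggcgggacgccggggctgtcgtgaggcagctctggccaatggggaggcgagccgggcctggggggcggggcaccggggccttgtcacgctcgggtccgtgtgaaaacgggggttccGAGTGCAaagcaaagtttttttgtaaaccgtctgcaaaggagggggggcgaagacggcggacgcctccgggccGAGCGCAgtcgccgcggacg
Slc39a10 start 1: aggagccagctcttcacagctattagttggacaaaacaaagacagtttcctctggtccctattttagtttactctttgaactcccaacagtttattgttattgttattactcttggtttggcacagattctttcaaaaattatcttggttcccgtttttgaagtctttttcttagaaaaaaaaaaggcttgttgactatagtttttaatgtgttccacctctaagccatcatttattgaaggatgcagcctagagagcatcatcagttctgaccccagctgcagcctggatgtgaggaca
Slc39a10 start 2: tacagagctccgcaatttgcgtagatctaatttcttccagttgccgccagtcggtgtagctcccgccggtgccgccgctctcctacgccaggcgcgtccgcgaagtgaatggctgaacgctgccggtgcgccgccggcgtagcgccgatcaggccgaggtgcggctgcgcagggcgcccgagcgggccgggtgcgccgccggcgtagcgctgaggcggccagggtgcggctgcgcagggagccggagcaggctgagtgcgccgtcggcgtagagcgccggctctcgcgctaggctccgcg
Slc30a4: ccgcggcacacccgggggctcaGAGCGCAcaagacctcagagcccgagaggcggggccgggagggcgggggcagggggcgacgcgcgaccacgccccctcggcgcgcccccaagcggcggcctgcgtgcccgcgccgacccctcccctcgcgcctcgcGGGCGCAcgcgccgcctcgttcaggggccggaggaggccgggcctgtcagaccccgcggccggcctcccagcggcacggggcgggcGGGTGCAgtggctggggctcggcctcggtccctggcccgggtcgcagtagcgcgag
Mt1: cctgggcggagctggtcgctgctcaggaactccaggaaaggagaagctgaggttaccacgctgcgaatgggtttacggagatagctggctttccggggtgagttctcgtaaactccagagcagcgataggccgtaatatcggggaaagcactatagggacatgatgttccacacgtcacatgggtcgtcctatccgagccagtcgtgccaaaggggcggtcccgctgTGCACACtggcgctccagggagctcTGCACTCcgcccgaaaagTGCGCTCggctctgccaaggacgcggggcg
Mt2: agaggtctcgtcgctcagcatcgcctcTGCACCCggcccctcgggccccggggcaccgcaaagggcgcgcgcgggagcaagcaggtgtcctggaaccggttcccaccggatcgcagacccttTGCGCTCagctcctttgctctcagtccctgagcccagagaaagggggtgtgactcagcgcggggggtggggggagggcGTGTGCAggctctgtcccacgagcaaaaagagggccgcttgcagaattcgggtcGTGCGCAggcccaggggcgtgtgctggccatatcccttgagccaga

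Of 32851 windows of this length, 25.7% held at least 1 match, 6.14% at least 2 and 1.31% at least 3. The Slc30a1 window held 2 matches, the windows of Mt1 and Mt2 held 3 and 4, and neither Slc39a10 window held any. Those of Mt3 and Mt4, which were also called higher, held 1 each. Slc30a4, which read lower with cadmium, held 3. The windows of Slc30a10 and Slc30a2 held 2 each, 1 of the 2 windows of Slc30a3 held 1, and those of Slc30a7 and Slc30a9 held 0. These letters describe the windows only, and no binding was measured.

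Slc30a10 (chromosome 1) encodes ZnT10, a plasma membrane exporter known mainly for manganese. It read 3.32, 3.23 and 3.31 in control and 3.46, 3.49 and 3.49 in cadmium arrays. The groups did not overlap, but the change of 0.19, with a 95% confidence interval of 0.075 to 0.31, narrowly missed the threshold (limma adjusted p = 0.0508). It was the dimmest of the 8 against the negative control probes, exceeding 65.2% of them in control and 68.7% in cadmium arrays. With each array centred on its median the change was 0.15 (adjusted p = 0.105), and it passed with limma's array weights (adjusted p = 0.0301) and with the trended and robust variance model (adjusted p = 0.0486).

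Slc30a2, Slc30a3 and Slc30a4 encode transporters that load zinc into vesicles. ZnT2, the product of Slc30a2 (chromosome 4), is known for zinc secretion into milk. Slc30a2 read 4.88, 4.79 and 4.74 in control and 4.95, 5.02 and 5.01 in cadmium arrays. Every cadmium array was above every control array, by a small margin, and the change of 0.19 (95% confidence interval 0.056 to 0.32) was not called (limma adjusted p = 0.0745). It passed only where genes under the median level were left out of the test (adjusted p = 0.0467).

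Slc30a3 (chromosome 5) encodes ZnT3, the zinc transporter of synaptic vesicles. Its control arrays read 5.78, 5.79 and 5.58 and its cadmium arrays 5.84, 5.85 and 5.79. It was the 1 gene of the 8 whose groups overlapped, with the lowest cadmium array inside the control range. The change was 0.11 with a 95% confidence interval of -0.055 to 0.27 (limma adjusted p = 0.345), so the interval spans 0. Without control replicate 3, the array that read lowest, the change was 0.041.

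Slc30a4 (chromosome 2) encodes ZnT4, a vesicular transporter lost in the lethal milk mouse. Slc30a4 read 6.09, 6.12 and 5.98 in control and 5.68, 5.92 and 5.83 in cadmium arrays. All its cadmium values lay under all its control values, and its change of -0.25 (95% confidence interval -0.43 to -0.075) was not called as deposited (limma adjusted p = 0.0751). With each array centred it was called, at -0.29 (adjusted p = 0.0483), as it was with array weights (adjusted p = 0.0414) and in a test limited to the brighter genes, those from the median level upward (adjusted p = 0.0498).

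Slc30a7 and Slc30a9 belong to internal membranes. Slc30a7 (chromosome 3) encodes ZnT7, which moves zinc into the Golgi apparatus. Its control arrays read 6.51, 6.54 and 6.27 and its cadmium arrays 6.10, 6.09 and 6.12. The control mean was the only group mean of the 8 genes above the bound, and the level with cadmium was at least 1.21-fold lower, at 6.10 ± 0.02 against 6.44 ± 0.15 (limma adjusted p = 0.0339). The call rested on a narrow margin. It was lost when any 1 array other than control replicate 3 was left out, at adjusted p of up to 0.113, and after quantile normalization (adjusted p = 0.0744), and it held without control replicate 3, at -0.42 (adjusted p = 0.00597).

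Slc30a9 (chromosome 5) encodes ZnT9, which is associated with zinc export from mitochondria. It read 5.26, 5.43 and 5.18 in control and 4.88, 4.93 and 4.99 in cadmium arrays. The groups did not overlap and the change was -0.35, with a 95% confidence interval of -0.53 to -0.18 (limma adjusted p = 0.0247). Both means were below the bound. This call was also lost when any 1 array other than control replicate 3 was left out, at adjusted p of up to 0.0827, and held without control replicate 3, at -0.41 (adjusted p = 0.0204).

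**Figure D2:**
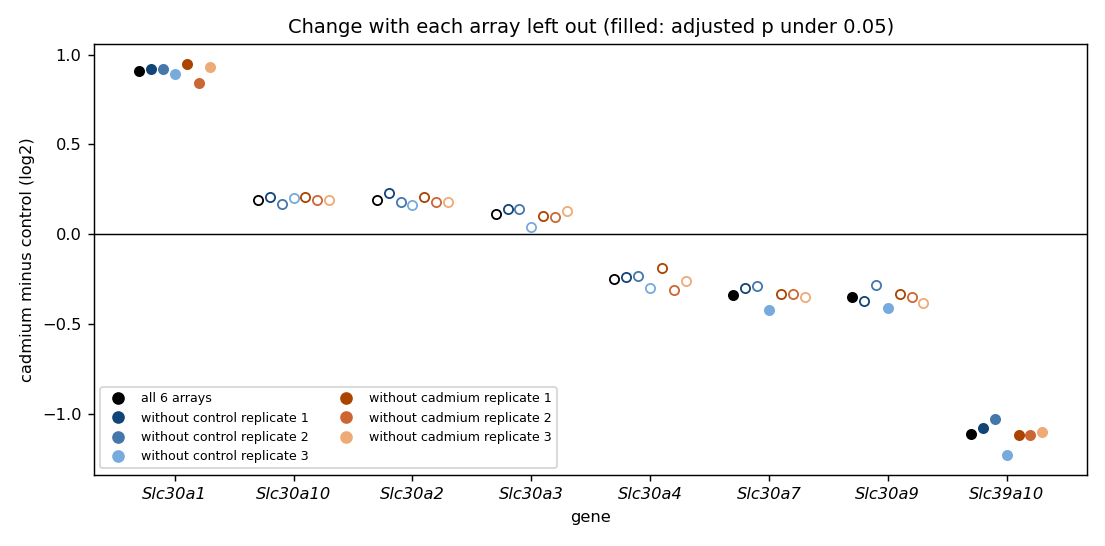
Change of each of the 8 genes (vertical axis, log2, cadmium minus control) with all 6 arrays and with each array left out in turn, filled where the adjusted p was under 0.05. Slc30a1 and Slc39a10 are filled in all 7 fits, and Slc30a7 and Slc30a9 only with all arrays or without control replicate 3.

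Control replicate 3 was the lowest control array in 7 of the 8 genes, all but Slc30a10, where 37.0% of all genes had it as the lowest and 43.1% of the genes called lower. The SD among control arrays of Slc39a10 was larger than that of 92.0% of all genes, and that of Slc30a7 larger than that of 81.8%. Among cadmium arrays the same genes were tighter than most, with SDs larger than those of 7.8% and 4.4% of all genes. With control replicate 3 and cadmium replicate 1 both left out, a setting chosen after the data were seen, the same 4 genes were called, Slc30a1 at 0.93 and Slc39a10 at -1.23 (limma adjusted p = 0.00433 and 0.00115), Slc30a7 at -0.42 and Slc30a9 at -0.38 (limma adjusted p = 0.0104 and 0.0356).

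**Figure D3:**
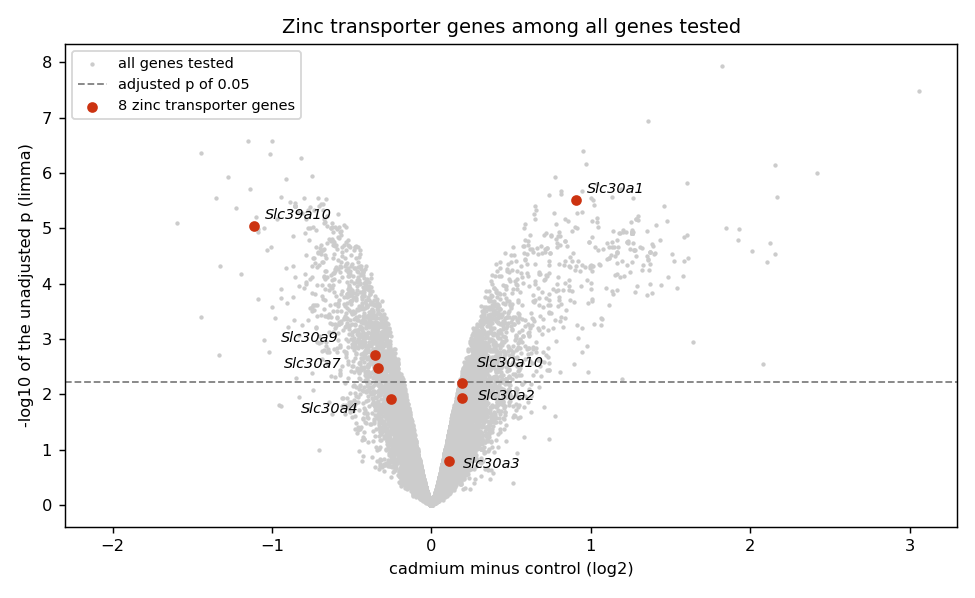
Change of all 18974 genes (horizontal axis, log2, cadmium minus control) against -log10 of the unadjusted limma p (vertical axis), with the 8 zinc transporter genes in red and a dashed line at an adjusted p of 0.05. Slc30a1 and Slc39a10 sit in the outer part of the cloud on opposite sides, and Slc30a10, Slc30a2, Slc30a3 and Slc30a4 below the line.

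Of the whole families, 7 of 10 Slc30 genes and 5 of 14 Slc39 genes were measured under a single name. The values used here hold transcript clusters of chromosomes 1 to 9, the sex chromosomes and the mitochondrial genome, with 533 of chromosome 10, so that family members elsewhere, and any without a single-gene cluster, were not analysed here. Among them is Slc30a8, the transporter of the insulin granule. In the Slc30 family 1 gene rose and 2 fell, with a median change of 0.11, and in the Slc39 family limma called 0 higher, with Slc39a8 at an unadjusted p of 0.03, and 1 lower, with a median of -0.07, beside 0.044 over all genes. Over all genes 6.47% were called higher and 5.72% lower. The family members not among the 8 were Slc39a1, Slc39a8, Slc39a12 and Slc39a13, none of which was called.

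Slc39a1 encodes ZIP1, a zinc importer of the plasma membrane found in many cells. It read 6.37 ± 0.13 in control and 6.26 ± 0.04 in cadmium arrays, above the bound in both groups, and changed by -0.10, with a 95% confidence interval of -0.28 to 0.071 (limma adjusted p = 0.395). Its pseudogene Slc39a1-ps read 6.48 ± 0.13 and 6.34 ± 0.09, and how far the probes of the gene and the pseudogene share signal was not tested, so both values are uncertain. Slc39a8 encodes ZIP8, which is known to carry cadmium as well as zinc and manganese into cells. It read 3.91, 4.09 and 3.98 in control and 4.14, 4.14 and 4.21 in cadmium arrays. The groups did not overlap, and the change of 0.17, with a 95% confidence interval of 0.022 to 0.32, was not called (limma adjusted p = 0.126). Slc39a12 changed by 0.083 and Slc39a13, the ZIP13 transporter of the secretory pathway, by -0.07 (limma adjusted p = 0.427 and 0.413).

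The metallothioneins, which bind zinc and cadmium in the cytosol, were higher on the same arrays. In a list with their activator Mtf1, 4 of 5 genes were called, where 12.2% of all genes were. Mt2 read 7.90, 8.23 and 7.68 in control and 9.97, 10.16 and 10.14 in cadmium arrays, a 4.45-fold higher level (limma adjusted p = 0.00113). Mt1 changed by 0.87 with a 95% confidence interval of 0.65 to 1.10, which overlaps that of Slc30a1, and its level was at least 1.37-fold higher. Mt4 changed by 0.92 (limma adjusted p = 0.0156). Mt3 changed by 0.21 (limma adjusted p = 0.0427), a call that was lost with each array centred (adjusted p = 0.0807). Both Mt3 and Mt4 lay below the background bound in both groups. The transcript of Mtf1 itself was at 5.53 ± 0.04 and 5.59 ± 0.02, a change of 0.06 with a 95% confidence interval of -0.054 to 0.17 (limma adjusted p = 0.455).

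**Figure D4:**
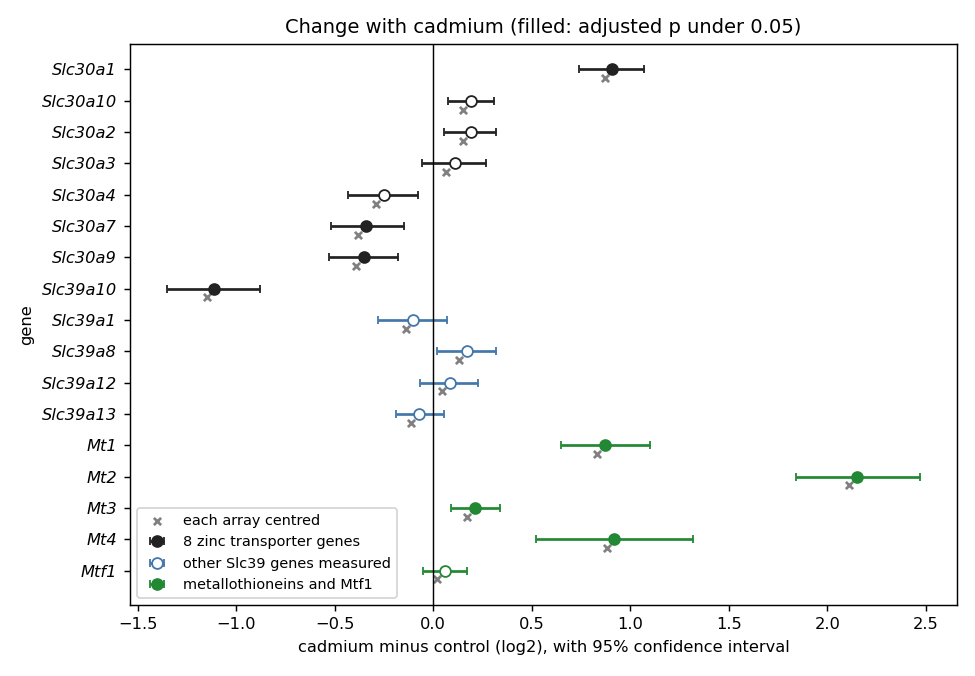
Change with cadmium (horizontal axis, log2) with 95% confidence intervals from limma, for the 8 zinc transporter genes (black), the other Slc39 genes measured (blue) and the metallothioneins with Mtf1 (green), filled where the adjusted p was under 0.05. Grey crosses give the change with each array centred on its median. The interval of Slc30a1 overlaps those of Mt1 and Mt4 and lies below that of Mt2.

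Among 16 measured genes listed with transporters of other metals 2 rose and 3 fell, where 12.2% of all genes were called. The median change of the list was -0.10. Trpm7, a channel and kinase that lets magnesium, calcium and zinc into the cell, fell from 6.38, 6.51 and 6.30 in control to 5.55, 5.62 and 5.65 in cadmium arrays, at least 1.17-fold lower (limma adjusted p = 0.00149). Its change of -0.79 was larger in size than that of 98.4% of all genes. Slc41a1, a magnesium transporter, fell 1.30-fold from 6.78 ± 0.13 to 6.40 ± 0.04, and Atp13a1, an ATPase of the endoplasmic reticulum, was at least 1.09-fold lower (limma adjusted p = 0.0197 and 0.007). The increases were small and below the bound, in Tfr2, a transferrin receptor, by 0.20, and in Slc11a1, a phagosomal metal transporter named after its value was seen, by 0.19. Both lost their calls with each array centred, at adjusted p of 0.0764 and 0.0928.

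Of 8 measured genes of the insulin granule 2 rose, where 6.47% of all genes were called higher. The median change of the list was 0.14. The level of Ptprn, which spans the granule membrane, was 1.87-fold higher, at 7.24 ± 0.11 with cadmium against 6.34 ± 0.20 (limma adjusted p = 0.00285). Vgf, whose product is cut into secreted peptides, rose by 0.88 (limma adjusted p = 0.00238) but stayed below the bound in both groups. Chgb and Cpe changed by 0.18 and 0.29 and were not called (limma adjusted p = 0.201 and 0.177).

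The cell type is taken from the sample titles, and its markers were dim on these arrays. All 8 measured beta cell identity genes lay below the bound in both groups, where 87.0% of all genes lay at or below it. By limma 0 of the 8 were called, with 2 at an unadjusted p under 0.05, Pax6 and Nkx6-1. Ins2, named after its values were seen, read 5.27 ± 0.10 and 5.29 ± 0.04, above 89.3% and 89.8% of the negative control probes. Iapp read 1.90 ± 0.18 and 1.76 ± 0.07, above only 33.7% and 29.8% of them. The log2 of the summed signals of this list was 7.09 to 7.20 in control and 7.22 to 7.23 in cadmium arrays. Among markers of other cells, 0 of 2 genes of other islet cells by limma (Gcg and Ghrl, unadjusted p = 0.625 and 0.502), 3 of 7 of exocrine pancreas and 1 of 5 of stromal and immune cells were called. The share called over all genes was 12.2%. The exocrine calls, all below the bound, were Ctrb1 and Cela2a, higher by 0.27 and 0.19 and lost with each array centred (adjusted p = 0.0514 and 0.0894), and Cftr, lower by 0.42, a change that was also called there. The summed level of all 7 measured exocrine genes was 6.78 to 6.80 in control and 6.90 to 6.95 in cadmium arrays. Col3a1, a fibrillar collagen gene, was 2.01-fold lower with cadmium, at 8.06 ± 0.17 against 9.07 ± 0.13 (limma adjusted p = 0.00183). It was the only one of the 5 measured stromal and immune genes above the bound, and it carried most of their summed level, which was 9.10 to 9.34 in control and 8.21 to 8.48 in cadmium arrays. Of the 5 genes 3 had positive changes, and the median change was 0.061. Vim changed by 0.16, Vwf by 0.064 and Ptprc by 0.061, none of them called (limma adjusted p = 0.0805, 0.4 and 0.457). Fewer cells of a type and less RNA per cell cannot be told apart in bulk samples, and the part of these marker values in the zinc transporter results was not tested.

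By a rule based on the pattern alone, the genes most like Slc30a1 over the 6 arrays were Hhat, Ociad2 and Dnaja4, and those most like Slc39a10 were Tapt1, Dipk2a and Vegfd. Likeness was the root mean square difference between values centred on each gene's own mean, searched over 11493 genes without predicted, small RNA and pseudogene entries. It was 0.0351, 0.0541 and 0.0651 log2 units for the first and 0.0605, 0.0793 and 0.0817 for the second. Hhat, which encodes an acyltransferase of hedgehog proteins, read 5.13, 5.01 and 5.01 in control and 5.87, 6.11 and 5.92 in cadmium arrays. As in Slc30a1, cadmium replicate 2 was the highest array. Tapt1 read 7.61, 7.69 and 7.34 in control and 6.36, 6.53 and 6.50 in cadmium arrays, with control replicate 3 the lowest control array, as in Slc39a10. The rule selects for such shared order of arrays, so the order is no separate result.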

How the data were processed

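Per the labels, total RNA was labelled with biotin. The values deposited by the authors, 1 per transcript cluster and array, are taken as log2 signals from their range. The base of the logarithm, background correction, normalization and software are not given in these sources, and a fold holds only if the base is 2. The table had 39746 transcript clusters and 6732 control probes. The platform annotation gave 19207 clusters 1 gene, 938 several and 19601 none, with symbols updated through RefSeq (GRCm38.p6). The brightest probe by mean over all arrays stood for each of 18974 genes, 161 of which had over 1 probe.

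Sample titles gave the groups and the replicate numbers. The deposited values were tested without further scaling in limma 3.58.1 under R 4.3.3, with a two-sided moderated test of the group term and Benjamini-Hochberg adjustment. The members and lists were chosen with earlier results of these data known. Named genes were the 8 members, the other measured Slc30 and Slc39 genes, the metallothioneins with Mtf1, up to 4 genes per further list by adjusted p, and the 3 genes nearest in pattern to Slc30a1 and to Slc39a10. Where 1 group mean lay below the bound, its arrays were set to at least their own 95th percentile of negative controls and the fold is a lower bound. Alternatives covered scaling, filters on level, probe choice, the variance model, weighting of arrays, a block for the replicate number, arrays left out and a stricter threshold. Figures used matplotlib 3.10.9.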

Additional observations from a re-analysis of the deposited data

How the results depend on the processing

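The direction of change of the 8 zinc transporter genes was the same in every alternative run, and the calls of Slc30a1 and Slc39a10 held in all that kept them in the test. A filter at the background bound left Slc30a7 alone of the 8. Counts of calls were moved as follows, and the cause was not tested. Over all 18974 genes 2313 were called, and 717 of the 2226 genes at or above the bound. From the median level upward 2308 of 9487 genes were called, a larger share than over all genes. The count over all genes was 3395 with array weights, 1388 with the replicate block and 868 at a threshold of 0.01. With 1 array left out it was 1142 to 2361. Higher genes made up 53.0% of the calls as deposited, 37.9% with each array centred and 43.5% after quantile normalization. Of the 8 genes, 4 were called, 6 with array weights and 6 from the median level upward, a limit that left out Slc30a10. The count was 1 at or above the bound, 2 with the replicate block and 2 at a threshold of 0.01. With 1 array left out it was 2 to 4, the 4 without control replicate 3.

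Slc30a7 and Slc30a9 lost their calls with the replicate block, at unchanged changes of -0.34 and -0.35 (adjusted p = 0.0738 and 0.0618), and at a threshold of 0.01. Slc30a7 also did after quantile normalization, at -0.31. Slc30a4 gained a call with each array centred, at -0.29, and at -0.25 with array weights and with the test limited to genes from the median level upward. Slc30a10 gained one with array weights, at 0.20, and with the trended and robust variance model, at 0.19, and Slc30a2 under that median limit, at 0.19. With 1 array left out, changes ranged from 0.84 to 0.95 for Slc30a1, 0.17 to 0.21 for Slc30a10, 0.16 to 0.23 for Slc30a2, 0.041 to 0.14 for Slc30a3, -0.31 to -0.19 for Slc30a4, -0.42 to -0.29 for Slc30a7, -0.41 to -0.28 for Slc30a9 and -1.23 to -1.03 for Slc39a10.

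In the lists, the calls among Slc30 genes were 3, against 5 from the median level upward or with array weights, 1 at or above the bound, 1 with the replicate block, 1 at a threshold of 0.01 and 1 to 3 with 1 array left out. The single Slc39 call, of Slc39a10, stayed 1 with any array left out. At or above the bound the Slc39 count was 0, since that filter left Slc39a10 out of the test. All list counts at or above the bound cover only the genes that the filter kept. The 4 metallothionein calls became 2 at or above the bound or at a threshold of 0.01 and 2 to 3 with 1 array left out, the 2 being without the second array of either group or the third of cadmium. The 5 calls among transporters of other metals became 8 from the median level upward or with array weights, 3 after quantile normalization or with the replicate block, 1 at or above the bound, 2 at a threshold of 0.01 and 2 to 5 with 1 array left out, the 5 without control replicate 3. The 2 insulin granule calls became 1 at or above the bound and stayed 2 with any array left out. The 3 exocrine calls became 1 with each array centred or with the replicate block, 0 at a threshold of 0.01 and 1 to 2 with 1 array left out, the 2 without control replicate 3 or cadmium replicate 1. The stromal and immune call became 2 from the median level upward and stayed 1 with any array left out. Beta cell and other islet lists kept 0 calls with any array left out.

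Deviations from the group means of same-numbered arrays correlated across genes at -0.108, 0.057 and -0.108. The highest correlation, 0.163, was between arrays with different numbers. With so few arrays per group the deviations within a group depend on each other. These correlations therefore cannot decide whether same-numbered samples were prepared together. Of the 8 genes 7 lay below the background bound in both groups, which limits what these arrays resolve.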

Other observations

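In the RefSeq order of protein-coding genes (GRCm38.p6), Hhat, the gene nearest in pattern to Slc30a1, is the fifth after it on chromosome 1. This was seen after the values, and carries no test. Of the 5 protein-coding genes on either side of Slc30a1 all 10 were measured. Of these 2 were called higher, Hhat and Kcnh1, and 3 lower, Rcor3, Ints7 and Dtl. Over all genes 6.47% were called higher and 5.72% lower, and a link to position was not tested. Hhat changed by 0.91 and Kcnh1, a potassium channel gene, by 0.34, whereas Rcor3 changed by -0.54, Ints7 by -0.49 and Dtl by -0.36. The genes next to Slc30a1, Nek2 and Rd3, changed by 0.049 and 0.21 and were not called (limma adjusted p = 0.803 and 0.0563).

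Around Slc39a10, 8 of the 10 nearest protein-coding genes were measured. Of these 1 was called, Nabp1, higher by 0.70, where 12.2% of all genes were called. The genes next to Slc39a10, Dnah7c and Tmeff2, changed by 0.07 and -0.17 and were not called (limma adjusted p = 0.405 and 0.154).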
